A study of Caenorhabditis elegans with 2 samples.

Results

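The 9 genes described here encode enzymes of the tricarboxylic acid (TCA) cycle and of the glyoxylate cycle in the nematode Caenorhabditis elegans: cts-1, aco-2, idha-1, idhg-1, ogdh-1, dlst-1, fum-1, mdh-2 and icl-1. They were named as a list and are 9 of the 19973 protein-coding genes of the annotation. Each was searched for binding sites of the nuclear hormone receptor NHR-19 from 1000 bp upstream to 500 bp downstream of its annotated 5′ end, a stretch called the promoter window below. Whole larvae of strain OP791, in the first larval stage (L1) and starved after bleaching, were used at an age of 6 hours. The strain carries wgIs791, a transgene with nhr-19 fused to a TY1 EGFP 3xFLAG tag and an unc-119(+) marker, in the unc-119 (tm4063) mutant background. The tagged protein was precipitated with an anti-GFP antibody per the labels' description, whereas another label field gives nhr-19 as the antibody. All animals belong to 1 group with 2 biological replicates, so there is no untagged, fed or nhr-19 mutant group to set against it, and the fusion gene comes in addition to the worm's own nhr-19. Whole animals were used, so a site present in a few tissues and a weaker site present in all of them cannot be told apart.

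The TCA cycle runs in mitochondria, where it oxidises the acetyl group of acetyl-CoA to carbon dioxide and passes the electrons to the respiratory chain. The glyoxylate cycle bypasses the steps that release carbon dioxide, so that carbon from stored fat can be turned into sugar. Worms are unusual among animals in having it, and it is known to be active in embryos and young larvae that live on maternal lipid. Nuclear hormone receptors are transcription factors that bind short DNA words, often singly or in pairs, and C. elegans has a greatly expanded family of them.

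The values come from peak lists deposited by the authors. A signal value is the height measure of a peak from the authors' peak caller, has no unit, and is set only against peaks of the same list. The irreproducible discovery rate (IDR) measures how well the rank of a peak repeats between sets of reads, and low values mean that it repeats. In the list from both replicates it compares the replicates. An IDR from the list of a single replicate, or of the pooled reads, does not compare the replicates with each other. The list from both replicates held 4560 peaks, which gave 4530 sites once summits within 200 bp were merged, out of a ranked list of 20609 peaks before thresholding. Its median signal was 267. The thresholded lists of the single replicates gave 3763 sites in replicate 1 and 3729 in replicate 2. No read counts are in the lists, so the depth is unknown.

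A site lay in the promoter window of 7 of the 9 genes, against 2810 of all 19973 protein-coding genes, or 14.1%. In replicate 1 alone 6 of the 9 genes had a site, against 12.3% of all genes. In replicate 2 alone it was again 6 of the 9, against 12.5% of all genes. All 9 genes had either a site or a candidate in the window, against 6679 of all 19973 protein-coding genes. A candidate is a ranked peak absent from the thresholded list and over 500 bp from any site. Of the 6679 genes with a site or a candidate, 42.1% had a site. The 9 genes were chosen with results of these data known, so these counts are a description and were not tested.

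The strengths were uneven. The strongest site of each of the 7 genes ranged from a signal of 151 at idha-1 to 6007 at mdh-2, with a median of 883. The strongest sites of all 2810 genes had a median of 354 and quartiles of 207 and 662. Thus 4 of the 7 genes, mdh-2, aco-2, icl-1 and idhg-1, stood above the upper quartile of all genes with a site, and dlst-1, fum-1 and idha-1 stood below the median. All 7 summits were upstream of the 5′ end, at 52 to 326 bp, with a median of 232 bp, whereas 91.5% of all genes with a site had their strongest one upstream and 64.5% had it within 400 bp upstream. The position of these summits was therefore that of the strongest site at most genes with a site. The window itself reaches farther upstream than downstream.

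**Figure D1:**
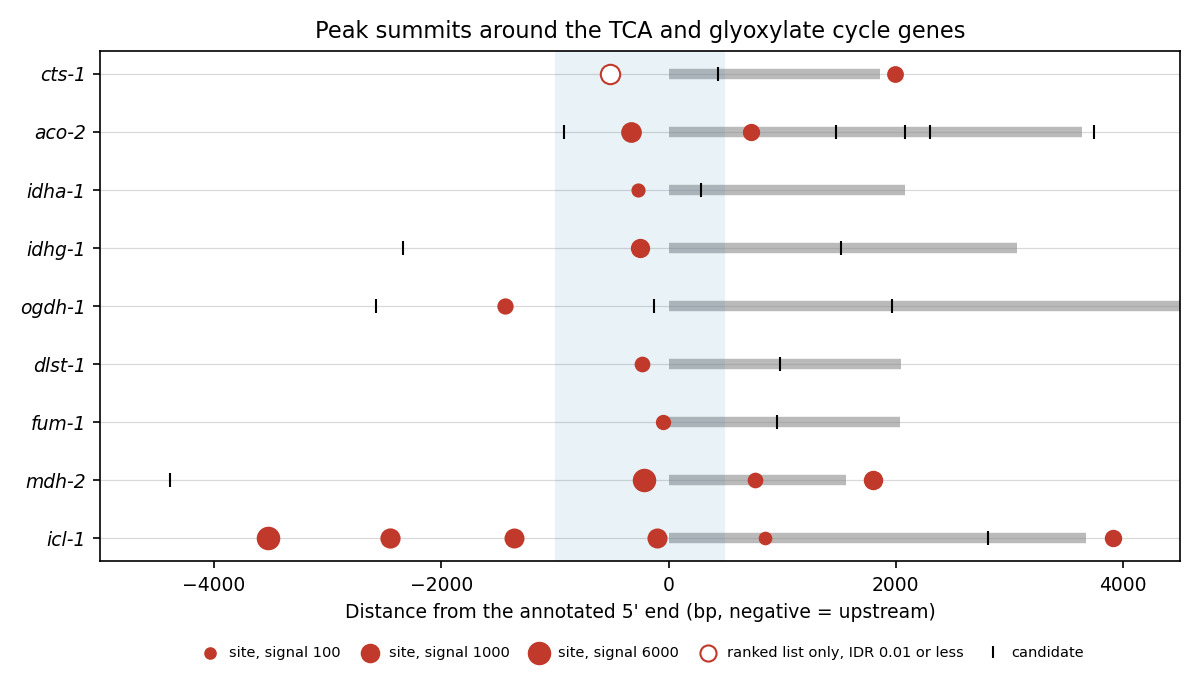
Position of peak summits around each gene, with distance from the annotated 5′ end in bp on the x axis, gene bodies as grey bars and the promoter window shaded. Filled circles are sites sized by signal, the open circle is the cts-1 peak absent from the thresholded list and ticks are candidates. At the 7 genes with a site in the window, that site's summit lies upstream, while candidates in the window lie on either side. The gene icl-1 has 4 sites within 5000 bp upstream.

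Citrate synthase, encoded by cts-1 (WBGene00000833, chromosome III, 10214771 to 10216635, minus strand), joins acetyl-CoA to oxaloacetate and opens the cycle. It had no site in any of the thresholded lists. The ranked list from both replicates nevertheless held a peak of 673 bp at chrIII:10216717-10217389 (ce11), in intergenic sequence, with its summit 513 bp upstream of the 5′ end. Its signal was 2268, which ranked 90 of 20609 peaks, and its IDR was 1e-05, the smallest value in these lists. In the ranked list of replicate 1 its signal was 1165, rank 96 of 19412, and in that of replicate 2 it was 991, rank 106 of 27687, with an IDR of 1e-05 in both. A site of 345 (208 in replicate 1, 133 in replicate 2) stood past the 3′ end of cts-1, in coding sequence of the bestrophin gene best-18. By signal the upstream peak sat between mdh-2 and aco-2 among the 9 genes in each of these 3 lists.

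The cts-1 peak was the strongest of 24 peaks that had an IDR of 0.01 or less and yet were missing from the thresholded list of both replicates. The next strongest was on chromosome X, nearest to Y7A5A.7, with a signal of 1821, and the one after it, nearest to bet-1, reached 572. The deposited file notes name a further input for the thresholded lists that they do not name for the ranked ones. What that input holds is not given in the sources used here, and its part in the missing peaks was not tested. All 64 words of 36 bases taken every 10 bp along the cts-1 peak occurred once in the genome, on either strand, as did those of the peaks of the other 8 genes. Counted with the peak, cts-1 makes 8 of 9 genes, and the share of all genes stays at 14.1%.

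Mitochondrial malate dehydrogenase, encoded by mdh-2 (WBGene00003162, III, 6606544 to 6608106, minus strand), remakes the oxaloacetate that citrate synthase uses. It had the strongest promoter site of the 9 genes, at chrIII:6608087-6608555, with its summit 215 bp upstream. The signal of 6007 ranked 5 of 4530 sites. Replicate 1 gave 3112, rank 5 of 3763, and replicate 2 gave 2934, rank 4 of 3729. Of all genes with a site, 0.214% had one at least as strong. The site ranked just above it, with 6263, lay in srh-2 and is described with icl-1 below, and the one just below it, with 5316, lay 1837 bp upstream of F21C10.10 on chromosome V.

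The mdh-2 site also lay in the window of F20H11.4, which is transcribed the other way, 301 bp upstream of its 5′ end. Which of the genes it acts on, if any, cannot be read from a peak list. A second site stood in an intron of mdh-2, 758 bp inside the 5′ end, with a signal of 239 (139 in replicate 1, 100 in replicate 2). Another, of 944 (427 and 504), stood in intergenic sequence past the 3′ end. Both were outside the promoter window.

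The windows 50 bp to either side of the mdh-2 and cts-1 summits are shown because both hold the same 9-base word, GCCGCGTGG, given in capitals. Bases were read from the RefSeq genome of the WBcel235 assembly, which is the ce11 build, 5′ to 3′ on the strand of the gene.
mdh-2, chrIII:6608271-6608371, minus strand: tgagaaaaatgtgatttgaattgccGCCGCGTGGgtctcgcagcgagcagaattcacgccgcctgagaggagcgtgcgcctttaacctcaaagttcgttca
cts-1, chrIII:10217098-10217198, minus strand: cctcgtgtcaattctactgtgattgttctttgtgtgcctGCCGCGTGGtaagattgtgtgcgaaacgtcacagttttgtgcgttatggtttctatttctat
The word was picked after the sequences were seen. On either strand it was within 50 bp of the summit at 24 of the 4530 sites, or 0.530%, and at 13 of the 15859 candidates, or 0.0820%. Among the 100 strongest sites mdh-2 was the 1 that held it. Of the 36 pairs of the 9 genes, 4 shared a word of this length, so a shared word as such was not particular to this pair.

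Mitochondrial aconitase, which turns citrate into isocitrate, is encoded by aco-2 (WBGene00000041, III, 7973717 to 7977355, plus strand). Its site at chrIII:7973256-7973537, with the summit 326 bp upstream, had a signal of 1619 and ranked 181 of 4530. Replicate 1 gave 886, rank 176, and replicate 2 gave 749, rank 191. The same summit lay 5 bp upstream of the 5′ end of eef-1B.1, which encodes a translation elongation factor subunit and runs the other way. A non-coding RNA gene, F54H12.9, lay within 500 bp, and such genes also lay within 500 bp of the sites of idha-1, dlst-1, fum-1 and icl-1. Where each site was given only to the gene of nearest 5′ end, the aco-2 site went to eef-1B.1 and aco-2 was left with none. A further site of 411 (236 in replicate 1, 170 in replicate 2) stood 729 bp inside aco-2, in annotated 5′ untranslated sequence.

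NAD-dependent isocitrate dehydrogenase, which makes 2-oxoglutarate and releases the cycle's first carbon dioxide, has alpha, beta and gamma subunits, and the data differed between its genes. At idhg-1 (WBGene00009440, III, 4568797 to 4571865, plus strand), the gamma subunit gene, the site at chrIII:4568384-4568683 lay 253 bp upstream and had a signal of 883, rank 538. Replicate 1 gave 489, rank 504, and replicate 2 gave 379, rank 603. That site was shared with mlcd-1, which encodes malonyl-CoA decarboxylase, 414 bp upstream of its 5′ end. The beta subunit gene idhb-1 had a site of 600 (329 in replicate 1, 277 in replicate 2) 19 bp inside its 5′ end.

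The alpha subunit gene idha-1 (WBGene00009664, I, 8606549 to 8608631, minus strand) had the weakest site of the 9 genes. Its peak, chrI:8608696-8609095, lay 265 bp upstream and had a signal of 151, rank 3880 of 4530, with an IDR of 0.000981. It passed the threshold in neither replicate alone. Replicate 1 gave a signal of 80.5 at an IDR of 0.254, and replicate 2 gave 79.9 at an IDR of 0.0469. In the list from pseudoreplicates of the pooled reads, with an IDR of 0.0264, it was not a site either. The sites ranked beside it had signals of 151, nearest to lin-59, and 150, upstream of acl-5, so idha-1 sat among the weak sites of the list.

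Oxoglutarate dehydrogenase, which makes succinyl-CoA, is a complex whose first and second enzymes are encoded by ogdh-1 and dlst-1. No site lay in the window of ogdh-1 (WBGene00020679, IV, 4696979 to 4704011, minus strand). It held a candidate of 96.9 at an IDR of 0.512, 124 bp upstream, with no summit within 200 bp in the ranked list of either replicate. The nearest site, at chrIV:4705250-4705649, was 1439 bp upstream with a signal of 293, rank 2080 (137 in replicate 1, 169 in replicate 2), and counted for ogdh-1 only with a window of 2000 bp. At dlst-1 (WBGene00020950, V, 6707056 to 6709101, minus strand) the site at chrV:6709133-6709532 lay 232 bp upstream. Its signal was 242, rank 2510, with 124 in replicate 1, rank 2684, and 128 in replicate 2, rank 2263, which is below the median of each list. Dihydrolipoamide dehydrogenase, the remaining enzyme of the complex, is shared with pyruvate dehydrogenase, and its gene dld-1 had a far stronger site, of 1661 (859 and 827), rank 172, 252 bp upstream.

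Fumarase, which turns fumarate into malate, is encoded by fum-1 (WBGene00001503, III, 7465605 to 7467640, plus strand). The peak at chrIII:7465353-7465752 had its summit 52 bp upstream, the nearest to a 5′ end among the 7 genes. Its signal was 212, rank 2869, with an IDR of 0.000383. Replicate 1 gave 123, rank 2702 of 3763, but replicate 2 gave 80.9, rank 3374 of 3729, with an IDR of 0.00557. This was the widest gap between replicates among the 6 genes with a site in both.

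Isocitrate lyase and malate synthase, the enzymes particular to the glyoxylate cycle, are joined in 1 protein in C. elegans, encoded by icl-1 (WBGene00001564, V, 724332 to 728004, minus strand). Its promoter site had its summit 97 bp upstream and a signal of 1219, rank 311. Replicate 1 gave 629, rank 340, and replicate 2 gave 582, rank 303. The peak, chrV:726208-728303, was 2096 bp wide and held a second summit, 850 bp inside icl-1 in an intron, with a signal of 131 (92.3 in replicate 1, absent from the thresholded list of replicate 2).

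Upstream of icl-1 stood 3 more sites, all within srh-2, which encodes a predicted chemoreceptor. They lay 1361, 2452 and 3525 bp upstream of icl-1. The nearest had a signal of 1188 (677 in replicate 1, 489 in replicate 2) and the middle one 1304 (775 and 551), both in srh-2 introns. The farthest, chrV:731247-731799, reached 6263 (3489 and 2787), rank 4 of 4530, in srh-2 sequence annotated as 5′ untranslated. The 3 sites nearest to icl-1 were of like strength, and the farthest exceeded the mdh-2 site. With the promoter site, icl-1 had 4 sites within 5000 bp upstream, a count reached by 56 of 19973 genes, or 0.280%, whereas 7 of the other 8 genes had 1 and cts-1 had none. At least 1 such site was found at 26.1% of all genes. The promoter site also lay in the window of srh-2, 200 bp upstream of its 5′ end as annotated, and another site, of 431 (251 and 178), followed the 3′ end of icl-1.

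**Figure D2:**
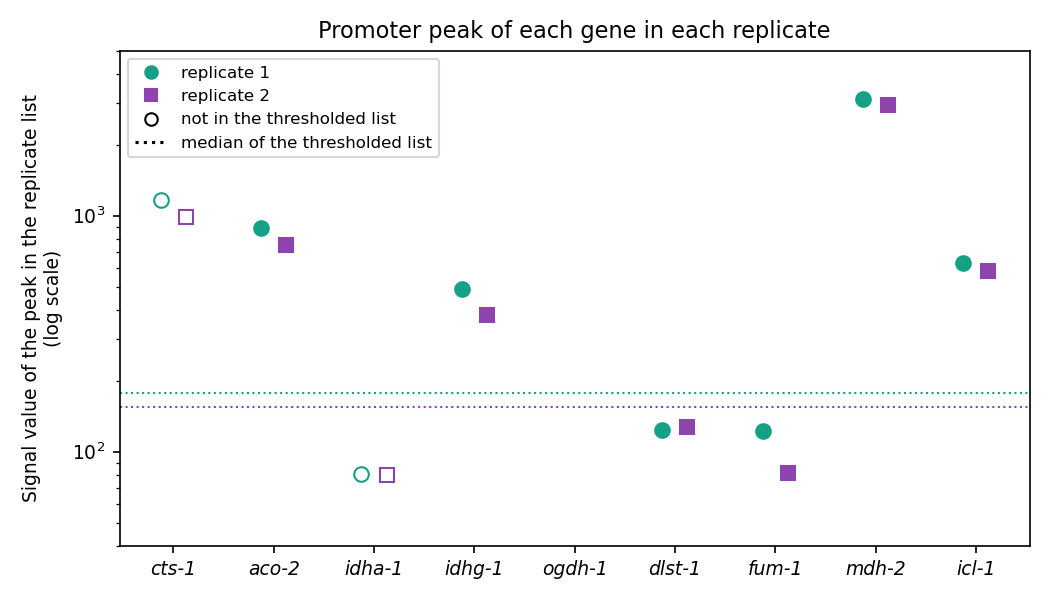
Signal value of each gene's promoter peak in the list of replicate 1 (circles) and replicate 2 (squares), on a log scale, with open symbols for peaks absent from the thresholded list and dotted lines at each list's median signal. Both replicates place mdh-2 highest, cts-1, aco-2, icl-1 and idhg-1 above the medians, and dlst-1, fum-1 and idha-1 below them, and ogdh-1 has no peak in either.

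The replicates gave much the same order. Of the 7 sites, 6 were found in both thresholded lists, with idha-1 the exception, and of all 4530 sites 3033 were, or 67.0%. The signal in replicate 2 divided by that in replicate 1 was 0.658 at fum-1, 0.775 at idhg-1, 0.846 at aco-2, 0.925 at icl-1, 0.943 at mdh-2 and 1.03 at dlst-1. Over the 3069 sites matched between the replicates the median of this ratio was 0.873, with 0.610 and 1.25 as the 5th and 95th percentiles, so all 6 genes were inside the usual spread. Neither library's depth is known, and the ratio also carries any difference in depth.

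**Figure D3:**
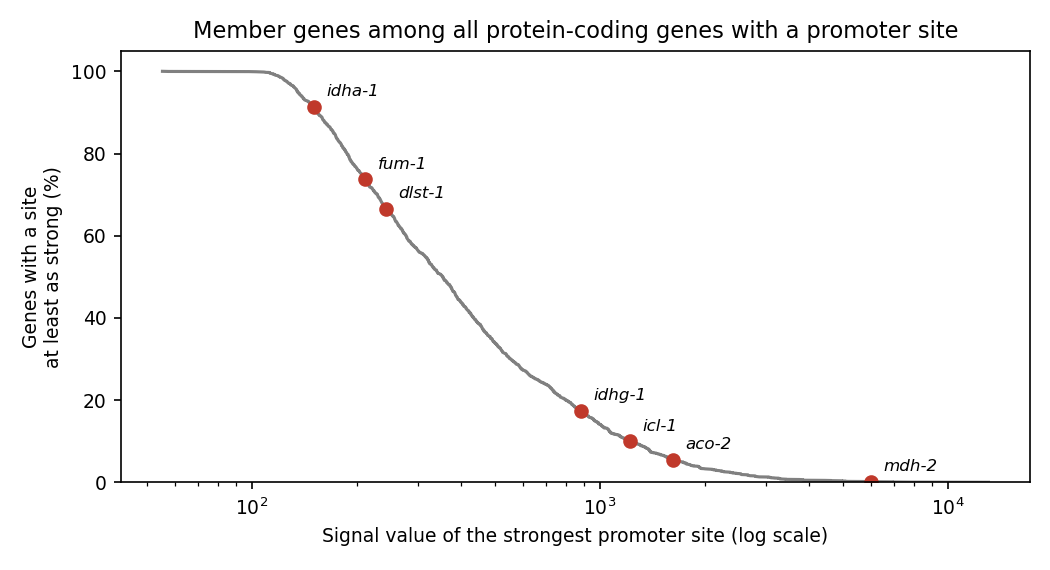
Percentage of the 2810 genes with a promoter site whose strongest site is at least as strong (y axis) against the signal value (x axis, log scale), with the 7 genes marked on the curve. The marks run from 0.214% for mdh-2, 5.48% for aco-2, 9.96% for icl-1 and 17.4% for idhg-1 to 66.6% for dlst-1, 73.8% for fum-1 and 91.4% for idha-1.

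The summit windows of 5 more genes are given to show which searched words they hold, and those of idha-1 and ogdh-1 are not printed here. Capitals mark the reverse complement of AGGTCA in fum-1, and in icl-1 the run that reads GAGAGA on the other strand and the word CCGCCC. Those of idhg-1, a strong site, and dlst-1, a weak one, hold none of the words. For aco-2 the stretch is shorter because 46 bases lie in annotated untranslated sequence and were left out.
aco-2, chrIII:7973387-7973441, plus strand: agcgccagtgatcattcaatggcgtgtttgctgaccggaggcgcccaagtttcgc
idhg-1, chrIII:4568494-4568594, plus strand: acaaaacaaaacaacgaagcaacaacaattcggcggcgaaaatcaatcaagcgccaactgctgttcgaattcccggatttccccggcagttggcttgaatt
dlst-1, chrV:6709283-6709383, minus strand: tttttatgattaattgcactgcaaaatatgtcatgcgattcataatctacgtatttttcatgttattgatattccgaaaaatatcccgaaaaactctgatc
fum-1, chrIII:7465503-7465603, plus strand: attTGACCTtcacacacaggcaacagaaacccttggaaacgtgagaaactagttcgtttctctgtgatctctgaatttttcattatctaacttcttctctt
icl-1, chrV:728051-728151, minus strand: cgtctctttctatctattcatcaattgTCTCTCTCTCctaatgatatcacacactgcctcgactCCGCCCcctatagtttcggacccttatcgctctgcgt

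The searched words were found at fum-1, icl-1 and idha-1 among the 7 sites. The words known as nuclear receptor half-sites, searched as AGGTCA, its variant AGTTCA, the related word GGGTCA and its variant GGTTCA on both strands within 50 bp of the summit, were found at 1 of the 7, fum-1, at 13.7% of all sites and at 13.4% of candidates. The repeat GAGAGA was found at 1 of the 7, icl-1, at 25.9% of all sites and at 8.87% of candidates. The word CCGCCC was found at idha-1 and icl-1, at 5.63% of all sites and at 2.98% of candidates. The palindrome CACGTG was found at none of the 7, at 7.75% of all sites and at 3.05% of candidates. No word of one search contains a word of another. The cts-1 peak held none of the words within 50 bp of its summit, but held GAGAGA and CCGCCC within 100 bp. With 100 bp to either side, a half-site word was found at idhg-1 as well as fum-1, and at 25.3% of all sites. With 7 sites, these counts are too small to be set apart from the shares of all sites.

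The share of G and C was higher at each of the stronger peaks than at each of the weaker ones, but the groups nearly met, with 43.6% at cts-1 and 42.6% at idha-1. Within each of these groups the order was not that of the signal, and the split was not tested. Within 50 bp of the summit, G and C made up 55.4% of the bases at aco-2, 53.5% at mdh-2, 47.5% at icl-1, 46.5% at idhg-1 and 43.6% at cts-1. The weaker peaks had 42.6% at idha-1, 37.6% at fum-1, 35.6% at ogdh-1 and 28.7% at dlst-1. The median was 45.5% at all sites and 39.6% at candidates. Peak signal can move with base composition, and its part in these values was not tested.

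The other genes of the cycle were uneven as well. Of 13 such genes, 6 had a site, with a median signal of 595. The site of sdha-1, the flavoprotein subunit of succinate dehydrogenase, which oxidises succinate and feeds the respiratory chain, was the strongest of them at 2264 (1218 in replicate 1, 1052 in replicate 2), rank 90, 224 bp upstream. The succinyl-CoA ligase genes sucl-1, with 590 (324 and 276), and suca-1, with 205 (97.9 and 111), had sites, as did idh-2, the mitochondrial NADP-dependent isocitrate dehydrogenase gene, with 164 (86.1 and 84.3). No site lay in the windows of sdhb-1, sdhd-1, sdha-2, sucl-2, sucg-1, idhg-2 and ogdh-2. The gene mev-1, which encodes a membrane subunit of succinate dehydrogenase and was looked up after the list was drawn up, had a site of 929 (498 and 428), 137 bp upstream and shared with jmjd-4.

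**Figure D4:**
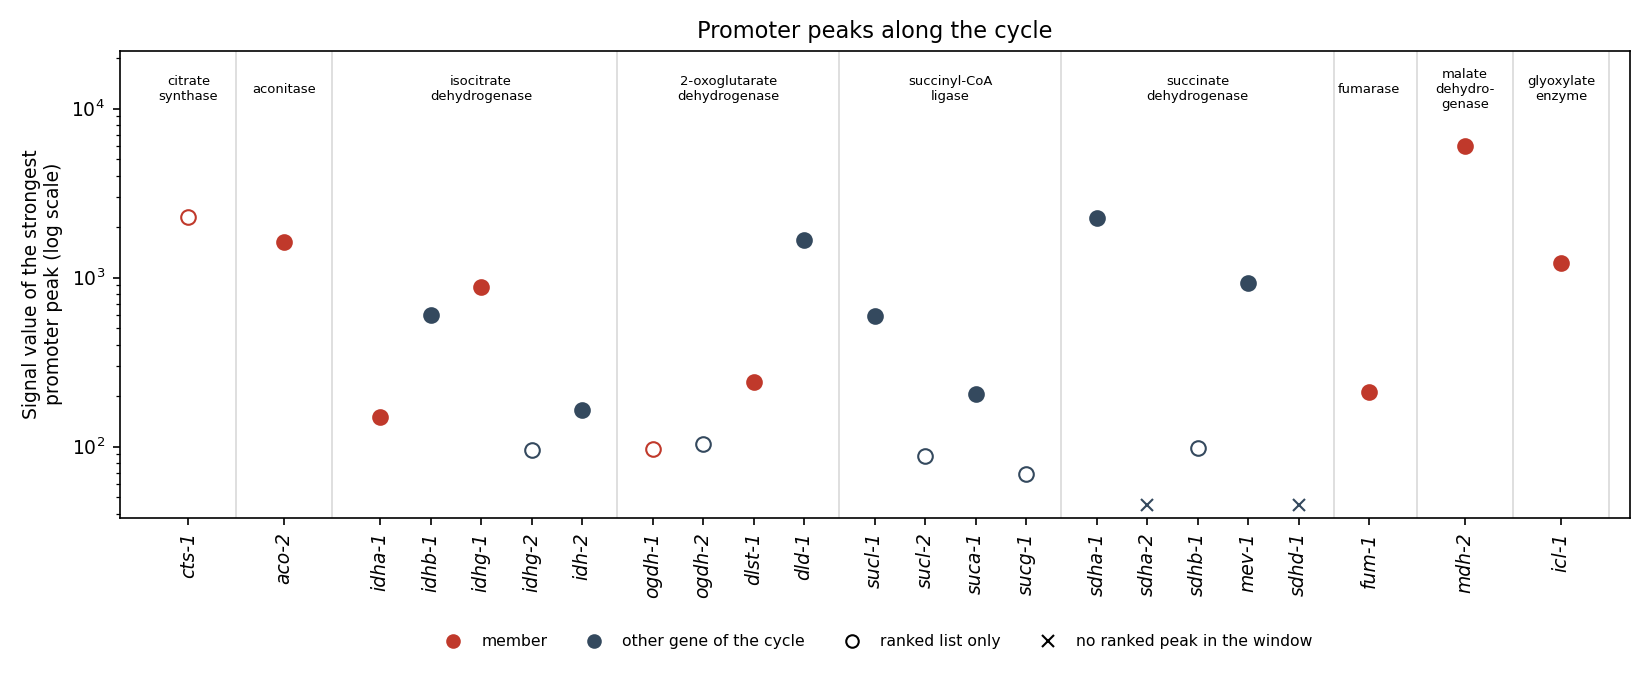
Signal value (log scale) of the strongest promoter peak of each gene, arranged by enzyme along the cycle, with red for the 9 genes, blue for other genes of the cycle, open circles for peaks in the ranked list only and crosses for no peak. Within isocitrate, 2-oxoglutarate and succinate dehydrogenase, strong sites such as idhg-1 at 883, dld-1 at 1661 and sdha-1 at 2264 stand beside subunit genes without a site or with a weak one.

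Of 9 genes that bring pyruvate into the cycle, 4 had a site, with a median signal of 582. They were pdhk-2, a pyruvate dehydrogenase kinase gene, with 1530 (805 in replicate 1, 750 in replicate 2), pyc-1, which encodes pyruvate carboxylase, with 887 (413 and 466), the pyruvate dehydrogenase phosphatase gene pdp-1 with 276 (130 and 145), and the mitochondrial pyruvate carrier gene mpc-1 with 131. The mpc-1 peak was in the ranked lists of both replicates (72.1 and 70.8) but in the thresholded list of neither. None of pdha-1, pdhb-1, dlat-1 and dlat-2, the core enzyme genes of pyruvate dehydrogenase, had even a ranked peak in the window. Of 9 cytosolic and exit genes, 2 had a site. They were pck-2, which encodes a phosphoenolpyruvate carboxykinase, with 675 (399 and 281), and aco-1, the cytosolic aconitase gene, with 197. The aco-1 peak was likewise in the ranked lists of both replicates (112 and 92.5) but in the thresholded list of neither. No site lay at mdh-1, the cytosolic counterpart of mdh-2. Of 19 glycolysis and gluconeogenesis genes, 9 had a site, with signals from 174 to 564 and a median of 208, and the strongest were hxk-2 at 564 and fbp-1 at 529. In each of these lists too the share with a site was above the 14.1% of all genes, though for the cytosolic and exit genes it rests on 2 genes and was 1 of 9 with no bases downstream of the 5′ end. Differences between the lists were not tested. None of the glycolysis sites reached the signal of idhg-1. The strongest site of each of these 9 glycolysis genes exceeded that of idha-1. Those of hxk-2 and fbp-1, and further glycolysis sites of 399 and 351, also exceeded those of dlst-1 and fum-1.

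Position along the genome was also uneven. Of the 9 genes, 5 are on chromosome III, and 4 of those had a site. Chromosome III had the highest share of genes with a site, 20.6% of its genes, against 17.5% on I, 13.8% on II, 13.0% on X, 12.6% on IV and 10.3% on V. Of the 7 genes with a site, 4 shared it with the window of another gene. Among all genes with a site the share was 48.0%, which is near.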

How the data were processed

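ChIP-seq of NHR-19::EGFP was analysed from 8 peak lists on ce11 that the authors deposited, per the labels. The deposited signal is the authors' value per peak, and the −log10 of the global IDR was deposited in the ranked lists and turned into IDR here. No source used here gives the aligner, peak caller or control. The conservative thresholded list was the main list. Summits within 200 bp were merged, keeping the strongest, and a site was found in a replicate when its summit lay within 200 bp. The 16 columns on single replicates without a sample name in the series' ranked lists were not used. Genes came from Ensembl release 115 (WBcel235). Analyses used Python 3.11.15, pandas 2.3.3, numpy 2.4.6 and matplotlib 3.10.9, and merging and gene assignment were checked on made-up peaks. Chromosome names and lengths were compared with the genome before coordinates were used.

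The 9 genes, the lists and the motifs were chosen with earlier results of these data known. Genes named are the 9, the genes of the other lists that have a site (for glycolysis the strongest 2), genes sharing or neighbouring their sites, and the genes beside the strongest and weakest site in rank. Genes of the other lists without a site, and Y7A5A.7 and bet-1, fall outside this rule and were named after their values were seen. Of 14 other TCA cycle genes, 13 symbols matched the annotation. No test was run, because there is 1 group. Alternatives were the other list, stricter and looser thresholds, single replicates, other windows, transcript ends, no merging, nearest gene only, other matching distances and wider motif windows.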

Additional observations from a re-analysis of the deposited data

How the results depend on the processing

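Of the values that answer a comparison, 80 alternatives left them within 1.5 times and 12 moved them further. A count of 7 out of 9 genes cannot rise by more than 1.5 times, so for it the limit could only be passed downward. The positions of single genes in the list were judged by the spread between replicates, and for idha-1 any change counted. Of these, 59 stayed the same and 18 moved. The 9 genes with a site numbered 6 when either replicate was left out, 6 with the pooled pseudoreplicate list (without idha-1), 6 with the nearest gene only (without aco-2), 8 with the ranked list at an IDR up to 0.05 and the same 8 at an IDR up to 0.01 (both adding cts-1, so the change of list and not the looser limit added it), and 8 with 2000 bp upstream (adding ogdh-1). With the strongest 50% of sites 4 remained, against 8.69% of all genes, and the cytosolic and exit genes had 1 and the glycolysis genes 4. Cytosolic and exit genes had 1 to 2 when a replicate was left out, 5 with 2000 bp upstream and 1 with none downstream. Within 100 bp of the summit the half-site was at 2 of the 7 sites (idhg-1 and fum-1) and 25.3% of all sites, GAGAGA at 39.9% and CCGCCC at 10.2% of all sites, and in the pooled list CCGCCC was at 1. The ranked peaks at an IDR of 0.01 or less, and mev-1, which makes 7 of the other cycle genes, were chosen after seeing the data. The share of sites at least as strong ranged from 0.0927% to 0.221% for mdh-2, 53.6% to 90.5% for fum-1 and 73.6% to 85.7% for idha-1. Each range covers only the settings in which the gene had a site, 13 for mdh-2, 12 for fum-1 and 9 for idha-1. The number of sites also differed between settings. No paired analysis was possible because there is 1 group. No control was used here to set aside signal that is not specific to NHR-19, and the unknown depth limits what a missing peak shows.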
